A study of Homo sapiens with 4 samples.

Results

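Septin mRNA was examined in triple-negative breast cancer cells after knockdown of QPRT, a de novo NAD+ synthesis enzyme. The family was represented by 8 genes, SEPTIN2, SEPTIN5, SEPTIN6, SEPTIN7, SEPTIN8, SEPTIN9, SEPTIN10 and SEPTIN11, which were found by Ensembl identifier among the 50653 genes of the deposited table. All 8 passed the filter of a mean FPKM of at least 1, as did 14321 genes in all. FPKM, the deposited unit, is a fragment number scaled to the length of the transcripts and to the size of the library. The 4 libraries were BT-20 with control shRNA, BT-20 with QPRT shRNA, MDA-MB-468 with control shRNA and MDA-MB-468 with QPRT shRNA, each deposited as 1 library. Both are established breast carcinoma lines of human origin classed as triple-negative. In both arms the hairpin was carried by a lentiviral vector. The study's methods name puromycin resistance for the QPRT vector and puromycin selection for the knockdown. They do not state separately that control cells were selected. BT-20 was kept in EMEM and MDA-MB-468 in L-15 medium, and medium and line cannot be told apart.

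Septins are GTP-binding proteins that assemble into rods, and the rods join end to end into filaments and rings under the plasma membrane and along actin and microtubules. A rod is built from subunits of separate sequence groups: the SEPTIN2 group (SEPTIN1, SEPTIN2, SEPTIN4, SEPTIN5), the SEPTIN6 group (SEPTIN6, SEPTIN8, SEPTIN10, SEPTIN11, SEPTIN14), SEPTIN7, and the SEPTIN3 group (SEPTIN3, SEPTIN9, SEPTIN12). Members of 1 group can take the same place in a rod, while SEPTIN7 has no paralogue in its place. Septin rings mark the cleavage furrow of dividing epithelial cells, and septin filaments limit the diffusion of membrane proteins and organise the actin cortex.

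The libraries held 10321996 to 10945948 fragments. The targeted gene QPRT went from 249 to 40.5 FPKM in the BT-20 libraries and from 117 to 18.3 FPKM in the MDA-MB-468 libraries. Its log2 difference was -2.59 and -2.62. The epithelial genes EPCAM, KRT8, KRT18 and KRT19 were at 148 FPKM or more in every library, as were KRT5 and EGFR, while KRT17, a basal keratin, had 2.76 and 2.51 FPKM in BT-20 but 237 and 373 FPKM in MDA-MB-468. PGR, the progesterone receptor, was listed at 0 in all 4. ESR1, the estrogen receptor, had 5.51 and 5.76 FPKM in BT-20 but 1.87 and 1.05 FPKM in MDA-MB-468, and ERBB2 had 129 and 122 FPKM and then 58.1 and 50.7. CDKN2A, a gene deleted in BT-20, was listed at 0 and 1.01 FPKM in the BT-20 libraries and at 225 and 244 in the MDA-MB-468 libraries. The 3 neuronal genes SNAP25, SYT1 and RBFOX3 stayed under 1 FPKM in all libraries, as did 7 of 9 blood cell and platelet genes. The platelet genes PF4, PPBP and GP9 were listed at 0 throughout. CD14 reached 15.4 and 26.1 FPKM in MDA-MB-468. Genes of gut, gastric and plasma cells, which these lines should lack, were present at low level and moved with the shRNA. In BT-20 the 15 listed genes summed to 89.5 FPKM with control shRNA against 34.5 with QPRT shRNA. In MDA-MB-468 the sums were 199.6 against 35.8 FPKM, and each of the 15 was lower with QPRT shRNA in both lines. Their part in the septin differences was not tested.

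SEPTIN2 and SEPTIN9 were the most abundant septins in all 4 libraries on the FPKM scale. The 13 human septin genes summed to 942 FPKM in BT-20 with control shRNA and 928 with QPRT shRNA. The sum was 1015 in MDA-MB-468 with control shRNA and 847 with QPRT shRNA. The 8 listed septins made up 99.1%, 98.6%, 97.5% and 96.4% of these sums. SEPTIN3, a septin known best from neurons, made up most of the rest. SEPTIN1, SEPTIN4, SEPTIN12 and SEPTIN14 were at 1.83 FPKM or less in each library, and SEPTIN14 was listed at 0 in all. SEPTIN5 was under 4 FPKM in every library.

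**Figure D1:**
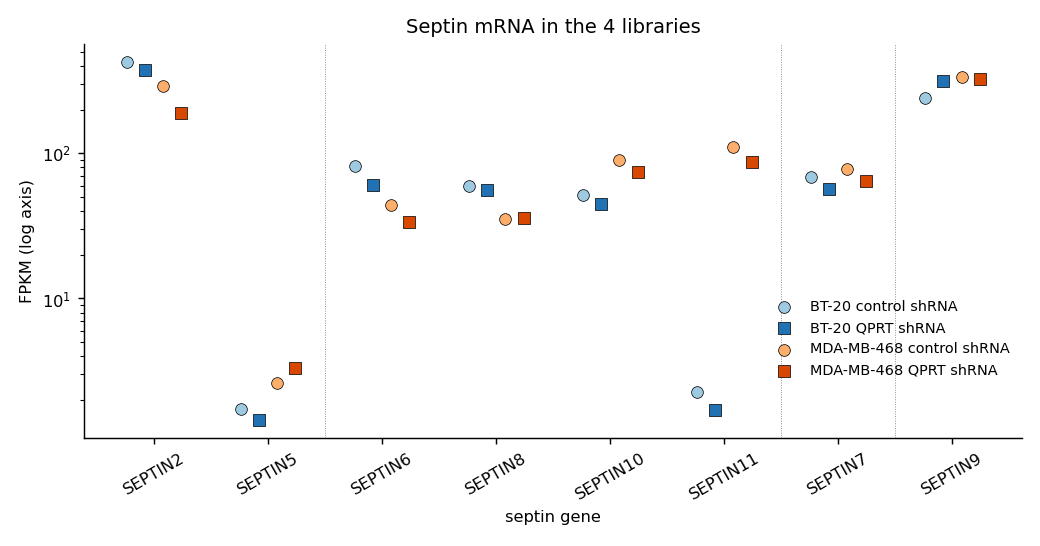
FPKM of the 8 listed septins (log axis) in the 4 libraries, 1 point per library, ordered by sequence group with dotted lines between the groups. SEPTIN11 lies at 2.26 and 1.71 FPKM in BT-20 and at 111 and 87.0 FPKM in MDA-MB-468, whereas SEPTIN2 and SEPTIN9 lie between 190 and 427 FPKM in all 4 libraries.

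The order of the septins within a library depended in part on the transcript length used. For 6 of the 8 septins, the deposited FPKM gave whole fragments with the mean length of all transcripts in GENCODE 29, which for SEPTIN2 is 1021 bases over 45 transcripts. For SEPTIN5 and SEPTIN7 it did not, and lengths of 1577 and 2411 bases were inferred from the values. With the length of the transcript that has the longest coding sequence, a choice made after seeing the data, SEPTIN2 stayed the highest septin in BT-20 with control shRNA, but it was below SEPTIN9 in BT-20 with QPRT shRNA and below both SEPTIN9 and SEPTIN11 in MDA-MB-468 with QPRT shRNA. Neighbouring genes in the order such as SEPTIN7 and SEPTIN8 in BT-20 (68.6 and 60.0 FPKM with control shRNA) changed places with the length. The ratio of 1 gene between libraries does not depend on the length. Its difference in log2(FPKM + 1) does through the added 1, which matters most for low genes.

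The SEPTIN6 group differed between the lines in opposite directions. SEPTIN11 and SEPTIN10 were higher in MDA-MB-468, and SEPTIN6 and SEPTIN8 were higher in BT-20, with either shRNA. In the aligned parts of their coding sequences, SEPTIN6 and SEPTIN11 are 77.5% identical, SEPTIN8 and SEPTIN11 74.9%, and SEPTIN6 and SEPTIN8 74.4%. In such parts SEPTIN10 is 72.6% identical to SEPTIN11, 71.4% to SEPTIN8 and 70.7% to SEPTIN6. In 1 transcript per gene, that with the longest coding sequence, no run of 50 bases of SEPTIN6, SEPTIN9 or SEPTIN11 occurs in a transcript of another annotated gene. Other SEPTIN9 transcripts share 864 exonic bases with AC111182.1 on the opposite strand, which was listed at 0.0268 FPKM or less.

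The promoters of these 4 genes are shown because the members of 1 sequence group differed between the lines. They are RefSeq sequences of GRCh38.p14, from 250 bases before to 50 bases after an annotated start, and CG dinucleotides (the letters CG, a motif that reads the same on both strands) are in capitals. For SEPTIN8 the first of its listed starts is shown. SEPTIN11 is read from chr4:76949502-76949801 on the plus strand, SEPTIN10 from chr2:109613917-109614216 on the minus strand, SEPTIN6 from chrX:119693119-119693418 on the minus strand and SEPTIN8 from chr5:132777190-132777489 on the minus strand.
SEPTIN11: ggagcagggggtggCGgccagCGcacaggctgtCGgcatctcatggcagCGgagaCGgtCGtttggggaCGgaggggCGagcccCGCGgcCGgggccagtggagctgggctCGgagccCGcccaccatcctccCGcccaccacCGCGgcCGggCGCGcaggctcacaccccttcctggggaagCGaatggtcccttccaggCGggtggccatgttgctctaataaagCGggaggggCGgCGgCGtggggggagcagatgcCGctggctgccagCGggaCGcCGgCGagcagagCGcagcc
SEPTIN10: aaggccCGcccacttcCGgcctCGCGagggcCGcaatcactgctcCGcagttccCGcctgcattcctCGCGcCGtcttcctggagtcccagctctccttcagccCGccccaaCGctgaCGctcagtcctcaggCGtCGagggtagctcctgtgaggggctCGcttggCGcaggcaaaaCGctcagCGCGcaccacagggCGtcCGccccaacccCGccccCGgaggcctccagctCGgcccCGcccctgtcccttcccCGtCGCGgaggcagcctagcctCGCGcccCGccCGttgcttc
SEPTIN6: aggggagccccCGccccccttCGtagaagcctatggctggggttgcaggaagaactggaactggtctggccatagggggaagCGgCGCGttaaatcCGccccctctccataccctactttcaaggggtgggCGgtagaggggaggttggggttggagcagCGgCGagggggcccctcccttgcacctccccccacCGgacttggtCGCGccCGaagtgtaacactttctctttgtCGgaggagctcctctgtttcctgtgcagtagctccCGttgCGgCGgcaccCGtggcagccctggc
SEPTIN8: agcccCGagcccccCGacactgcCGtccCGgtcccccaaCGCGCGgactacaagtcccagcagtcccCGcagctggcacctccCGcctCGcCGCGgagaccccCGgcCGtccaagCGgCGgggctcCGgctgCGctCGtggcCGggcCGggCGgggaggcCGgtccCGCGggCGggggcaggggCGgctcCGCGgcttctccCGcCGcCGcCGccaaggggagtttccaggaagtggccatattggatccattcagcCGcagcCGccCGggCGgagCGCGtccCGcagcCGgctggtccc

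CG was counted 31 times in the SEPTIN11 promoter, and 20.7% of the 35116 promoters of this length hold at least as many. The count was 33 for SEPTIN10 (17.2% of promoters), 18 for SEPTIN6 (44.5%) and 41 for SEPTIN8 (6.69%), against a median of 14 over all promoters. The other listed start of SEPTIN8 holds 8 (60.7% of promoters), so the order of the 4 genes by CG count depends on the SEPTIN8 start taken. No methylation or binding was measured here.

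SEPTIN11 (chr4:76949703-77040384, plus strand, GENCODE 29 on GRCh38) is a SEPTIN6-type subunit that is found along stress fibres in cultured cells. It had 2.26 FPKM in BT-20 with control shRNA, 1.71 in BT-20 with QPRT shRNA, 111 in MDA-MB-468 with control shRNA and 87.0 in MDA-MB-468 with QPRT shRNA. These values rest on 31, 24, 1562 and 1157 fragments. Both MDA-MB-468 libraries lay above both BT-20 libraries. The level in MDA-MB-468 was 48.9-fold higher under control shRNA and 51.0-fold higher under QPRT shRNA. The 95% counting interval of the log2 ratio of fragments ran from 5.10 to 6.17 under control shRNA and from 5.09 to 6.32 under QPRT shRNA. On the log2(FPKM + 1) scale the mean line difference was 5.06 (SE 0.24), with an adjusted p of 2.25e-96 (limma). Among the genes tested, 0.635% had a larger line difference of either sign. A p of this size rests on a spread taken over all genes, since limma estimated infinite prior degrees of freedom. Over the alternative settings the adjusted p for SEPTIN11 ranged up to 0.129, which was reached when low genes were not removed. SEPTIN11 made up 1.15% and 1.05% of the summed FPKM of SEPTIN6, SEPTIN8, SEPTIN10 and SEPTIN11 in the BT-20 libraries. Its share in the MDA-MB-468 libraries was 39.5% and 37.6%.

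SEPTIN10 (chr2:109542982-109614206, minus strand) had 51.8 and 45.0 FPKM in BT-20 with control and QPRT shRNA, and 90.3 and 74.7 FPKM in MDA-MB-468. Both MDA-MB-468 libraries were above both BT-20 libraries. The mean line difference was 0.75 on the log2(FPKM + 1) scale (SE 0.21, limma adjusted p = 0.000742). Of the 50-base runs of its longest coding transcript, 8.81% also occur in the processed pseudogene SEPTIN10P1, which was listed at 0 in all libraries.

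SEPTIN6 (chrX:119615724-119693370, minus strand), the subunit that gives the group its name and partners SEPTIN2 and SEPTIN7 in the best known rod, had 82.1 FPKM in BT-20 with control shRNA, 60.7 with QPRT shRNA, 44.2 in MDA-MB-468 with control shRNA and 33.6 with QPRT shRNA. The mean line difference was -0.86 (SE 0.21, limma adjusted p = 0.000148), and both BT-20 libraries lay above both MDA-MB-468 libraries. SEPTIN8 (chr5:132750817-132807241, minus strand) had 60.0 and 56.0 FPKM in BT-20 and 35.3 and 35.7 FPKM in MDA-MB-468. Its mean line difference was -0.69 (SE 0.21, limma adjusted p = 0.00287), again with no overlap between the lines. SEPTIN8 shares 1150 exonic bases with CCNI2 on the opposite strand. CCNI2 was listed at 0.187 FPKM or less.

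**Figure D2:**
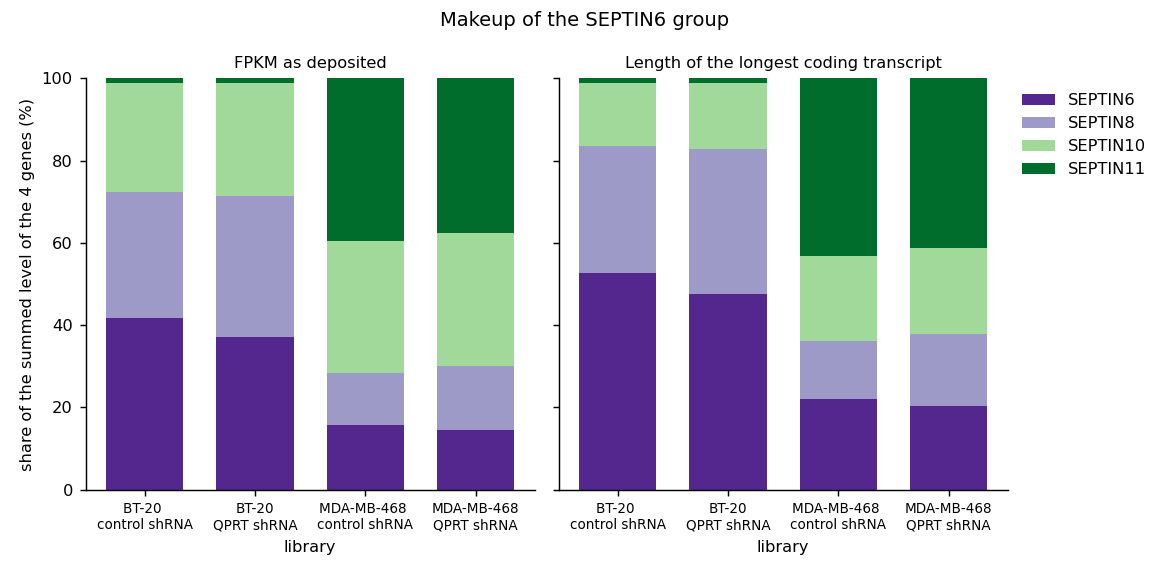
Share of SEPTIN6, SEPTIN8, SEPTIN10 and SEPTIN11 in their summed level (%), 1 bar per library, with FPKM as deposited at left and with the length of the longest coding transcript on the right. SEPTIN6 and SEPTIN8 together take the larger share in both BT-20 libraries and SEPTIN10 and SEPTIN11 in both MDA-MB-468 libraries on either scale. SEPTIN11 takes 1.14% and 1.05% of the BT-20 bars and 43.2% and 41.3% of the MDA-MB-468 bars on the right.

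SEPTIN2 (chr2:241315100-241354027, plus strand), a core subunit needed for actin organisation and cytokinesis in many cell lines, was higher in BT-20 and lower with QPRT shRNA in each line. It had 427 FPKM in BT-20 with control shRNA, 376 with QPRT shRNA, 293 in MDA-MB-468 with control shRNA and 190.3 with QPRT shRNA, from 4631, 4187, 3277 and 2005 fragments. The 4 values fell in separate places, with both BT-20 libraries above both MDA-MB-468 libraries. The mean line difference was -0.76 on the log2(FPKM + 1) scale (SE 0.19, limma adjusted p = 0.000199). It was -0.54 between the control libraries and -0.98 between the QPRT libraries. With QPRT shRNA, SEPTIN2 was at 88.0% of its control in BT-20 and at 64.9% of its control in MDA-MB-468. The counting interval of the log2 ratio was -0.24 to -0.12 for BT-20 and -0.70 to -0.54 for MDA-MB-468. The intervals did not overlap, and the difference between the lines was not tested against a spread between replicates. SEPTIN2 was among the genes that the study chose for display from these same libraries, so its lower level is not independent evidence. It shares 232 of 7378 exonic bases with HDLBP on the opposite strand. HDLBP had 750 and 641 FPKM in the BT-20 libraries and 533 and 420 FPKM in the MDA-MB-468 libraries, and whether fragments were assigned by strand is not given in the sources used here.

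SEPTIN5 (chr22:19714464-19724224, plus strand), a relative of SEPTIN2 known for its place at synaptic vesicles and in platelets, was near the bottom of the detected range. It had 1.73 and 1.45 FPKM in BT-20 and 2.61 and 3.32 FPKM in MDA-MB-468, from 29, 25, 45 and 54 fragments. The mean line difference of 0.61 on the log2(FPKM + 1) scale had an SE of 0.29 and a limma adjusted p of 0.0671. The counting interval of its knockdown ratio on the log2 scale was -1.09 to 0.57 for BT-20 and -0.25 to 0.95 for MDA-MB-468. A change was not detectable at this depth. All 50-base runs of SEPTIN5 are shared with the annotated read-through gene SEPT5-GP1BB. GP1BB, a platelet receptor gene that overlaps the end of SEPTIN5, was listed at 0 in all libraries.

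SEPTIN7 (chr7:35800932-35907105, plus strand), the subunit with no paralogue in its place, varied least between the lines in the mean of both shRNAs. It had 68.6 and 57.1 FPKM in BT-20 and 77.5 and 64.9 FPKM in MDA-MB-468, and the libraries of the lines overlapped. The mean line difference was 0.18 (SE 0.21, limma adjusted p = 0.476). SEPTIN7 was at 83.2% of its control with QPRT shRNA in BT-20. It was at 83.8% in MDA-MB-468. Its log2(FPKM + 1) difference was -0.26 and -0.25, in the same order. Corrected for the trends with GC content and with length, these values were -0.45 and -0.12. SEPTIN7 transcripts have a mean GC content of 40.4%, lower than all but 8.76% of the genes tested. Of its 50-base runs, 7.37% occur in other genes, most of them in its pseudogenes. SEPTIN7P2 was listed at 13.8, 14.3, 27.7 and 24.0 FPKM and SEPTIN7P13 at 16.9, 16.2, 12.6 and 7.13 FPKM, in the order BT-20 control, BT-20 QPRT, MDA-MB-468 control and MDA-MB-468 QPRT shRNA. The split of fragments between SEPTIN7 and SEPTIN7P2 is uncertain. SEPTIN7P13 was not named among the genes that share a 50-base run with the SEPTIN7 transcript examined. Some of those genes carry only clone names that were not matched to current symbols, so whether SEPTIN7P13 shares a run was not settled.

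SEPTIN9 (chr17:77280569-77500596, plus strand), which is part of the longer septin rods and bundles actin and microtubules, was the 1 listed septin with a higher level in BT-20 after knockdown. It had 240.3 FPKM in BT-20 with control shRNA, 317 with QPRT shRNA, 336 in MDA-MB-468 with control shRNA and 328 with QPRT shRNA, from 3597, 4879, 5186 and 4764 fragments. The BT-20 control library was lowest and the other three lay close together. The fold with QPRT shRNA was 1.32 for BT-20 and 0.974 for MDA-MB-468. The counting interval of the log2 ratio was 0.34 to 0.46 for BT-20 and -0.09 to 0.02 for MDA-MB-468. The line difference was 0.48 between control libraries and 0.05 between QPRT libraries, and its mean of 0.26 (SE 0.19) had a limma adjusted p of 0.233. SEPTIN9 has 47 annotated transcripts from several starts, and the deposited value sums over them. SEPTIN3, of the same sequence group but not among the 8, had 6.42 and 11.1 FPKM in BT-20 and 23.8 and 28.8 FPKM in MDA-MB-468. On the log2(FPKM + 1) scale it differed by 0.71 with QPRT shRNA in BT-20 and by 0.26 in MDA-MB-468, and its counting intervals of 0.49 to 1.10 and 0.11 to 0.44 lay above no difference in both lines. Its mean difference was 0.49 (SE 0.24, limma unadjusted p = 0.0427, adjusted p = 0.98).

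**Figure D3:**
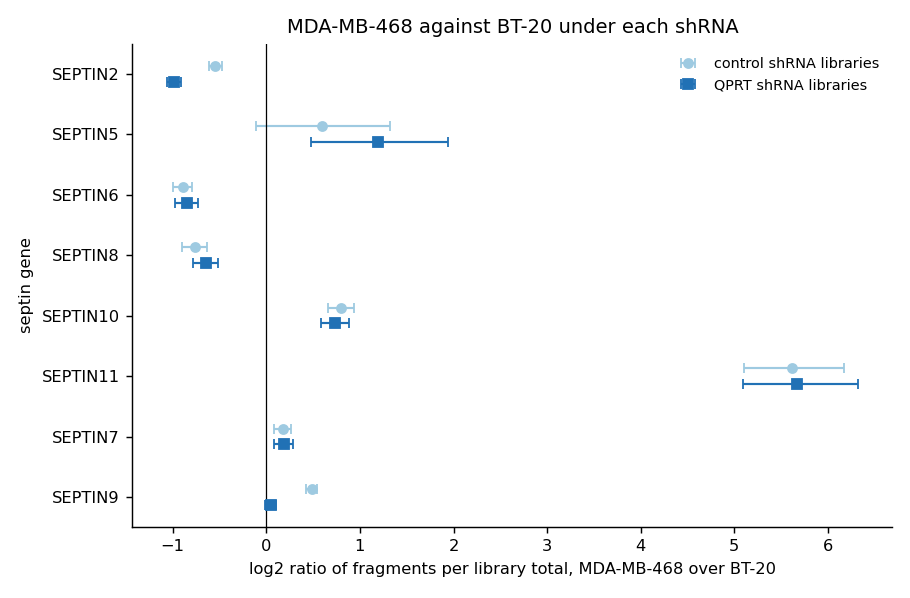
log2 ratio of fragments per library total, MDA-MB-468 over BT-20, for the 8 septins with control shRNA (circles) and QPRT shRNA (squares). Bars are 95% counting intervals and cover counting error only. SEPTIN11 lies above 5 with either shRNA, and SEPTIN2, SEPTIN6 and SEPTIN8 lie below 0 with either shRNA.

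Between the lines, 5 of the 8 septins had a limma adjusted p under 0.05, 2 higher in MDA-MB-468 (SEPTIN10, SEPTIN11) and 3 lower (SEPTIN2, SEPTIN6, SEPTIN8). Over all genes tested, 55.1% passed in either direction, 30.7% higher and 24.4% lower, so the share of septins was near that of all genes. The median absolute line difference was 0.72 for the septins and 0.61 for all genes tested on the log2(FPKM + 1) scale. With no filter on low values, none of the 8 and none of the 50626 genes then tested passed, although 4 septins and 7482 genes had an unadjusted p under 0.05.

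None of the 8 listed septins differed by 2-fold or more on the log2(FPKM + 1) scale with QPRT shRNA in either line. Of all genes tested, 1.7% passed 2-fold among the BT-20 libraries and 1.89% among the MDA-MB-468 libraries. The largest difference among the 8 in either line was that of SEPTIN2 in MDA-MB-468, -0.62 on the log2(FPKM + 1) scale, and 3.20% of the genes tested lay further down in that comparison. It was the 1 listed septin past 1.5-fold in either line, a threshold that 9.17% of the genes tested passed in MDA-MB-468. In BT-20 the largest was that of SEPTIN6, -0.43, with 6.85% of the genes tested further down. SEPTIN6 was at 73.9% of its control in BT-20 and at 76.1% of it in MDA-MB-468. SEPTIN10 was at 86.8% and 82.8%, and SEPTIN11 at 75.4% and 78.5%. SEPTIN8 was at 93.3% and 101%.

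**Figure D4:**
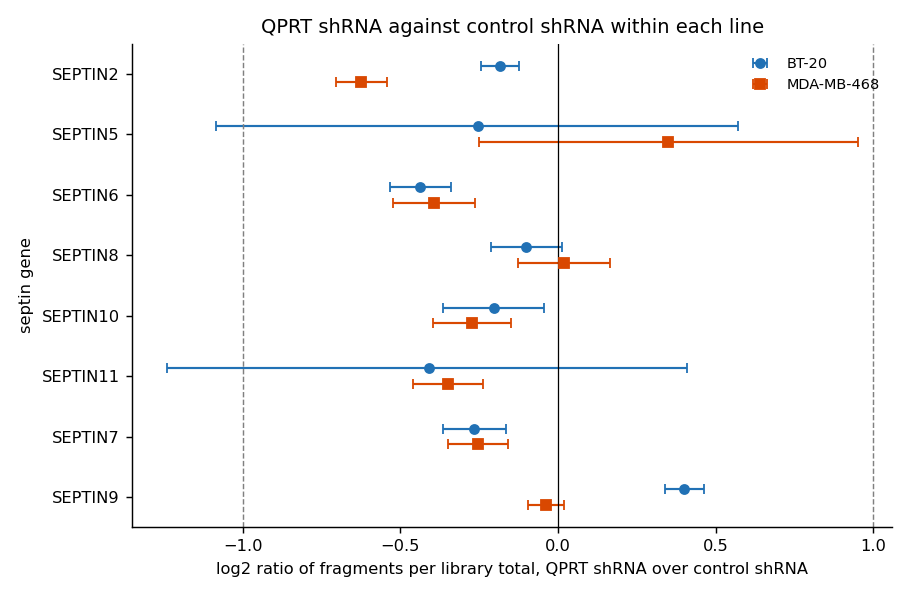
log2 ratio of fragments per library total, QPRT shRNA over control shRNA, for the 8 septins in BT-20 (circles) and MDA-MB-468 (squares). Bars are 95% counting intervals, which cover counting error only, and dashed lines mark 2-fold. All 16 points lie inside the dashed lines, and those of SEPTIN2, SEPTIN6, SEPTIN7, SEPTIN10 and SEPTIN11 lie below 0 in both lines.

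Lower values with QPRT shRNA in both lines were found for 5 of the 8 septins, SEPTIN2, SEPTIN6, SEPTIN7, SEPTIN10 and SEPTIN11, where 17.7% of all genes tested were lower in both. None of the 8 was higher in both lines, against 26.2% of the genes tested, whereas SEPTIN3, outside the 8, was higher in both. SEPTIN1, also outside the 8, was lower in both, from 22 fragments or fewer in each library. Opposite signs were found for SEPTIN5, SEPTIN8 and SEPTIN9 and for 54.6% of the genes tested. The counting interval lay below no difference for 4 septins in BT-20 (16.7% of all genes with recovered fragments) and for 5 in MDA-MB-468 (21.1%). It lay above no difference for SEPTIN9 in BT-20 (26.8%) and for none of the 8 in MDA-MB-468 (22.9%). For SEPTIN11 in BT-20 it ran from -1.24 to 0.41 and included no difference. The median difference of the 8 septins was -0.19 for BT-20 and -0.26 for MDA-MB-468, beside 0.05 and 0.01 for all genes tested. SEPTIN8 joined the genes lower in both lines under upper quartile scaling, under TPM scaling and with correction for GC content and length, since its MDA-MB-468 value of 0.02 became -0.03, -0.002 and -0.03.

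Over both lines together with limma, none of the 8 septins had an adjusted p under 0.05 for QPRT shRNA against control shRNA, and 0.628% of the genes tested did. Among the 8, SEPTIN2 alone had an unadjusted p under 0.05 (mean difference -0.40, SE 0.19, unadjusted p = 0.0337, adjusted p = 0.929, lower in both lines). SEPTIN6 had a mean difference of -0.41 (SE 0.21, adjusted p = 1.00). The limma-voom fit on recovered fragments called 0 of 8 as well, with 2 at an unadjusted p under 0.05. With 1 library per line and shRNA, the lines stood in for replicates. A miss at this size does not show that the septins were unaltered.

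Septin partners were examined as a list of 17 genes. Of these 16 were tested, none differed by 2-fold or more on the log2(FPKM + 1) scale in either line, and none had an adjusted p under 0.05 for QPRT shRNA (limma; 0.628% of all genes tested). The Borg proteins are effectors of CDC42 that bind and organise septin filaments. Of their 5 genes, 4 had a limma adjusted p under 0.05 between the lines. CDC42EP5 had 17.3 and 16.4 FPKM in BT-20 but 1.27 and 0.168 FPKM in MDA-MB-468, a mean line difference of -3.45 (SE 0.28, limma adjusted p = 5.51e-34). CDC42EP4 had 52.3 and 59.5 FPKM in BT-20 and 128 and 197 FPKM in MDA-MB-468, a mean line difference of 1.49 (SE 0.20, limma adjusted p = 1.09e-12). CDC42EP1 (141, 123, 154 and 205 FPKM in the order of the libraries above) and CDC42EP2 (7.76, 5.05, 7.53 and 15.3 FPKM) also passed between the lines, with limma adjusted p of 0.0499 and 0.0149. Their control libraries lay close together, and for CDC42EP2 the MDA-MB-468 control was the lower. With QPRT shRNA both genes were lower in BT-20 and higher in MDA-MB-468. The log2(FPKM + 1) differences were -0.19 and 0.41 for CDC42EP1 and -0.53 and 0.94 for CDC42EP2. Their line differences thus lay mostly in the QPRT shRNA libraries. CDC42EP3 had 39.0, 35.5, 27.4 and 40.3 FPKM and did not pass. CENPE, a mitotic kinesin, was higher in MDA-MB-468 (mean line difference 0.70, limma adjusted p = 0.0222). CDC42 itself, MYH10, a non-muscle myosin, and STX1A, a syntaxin that binds SEPTIN5, were lower in MDA-MB-468, with mean line differences of -0.44, -0.48 and -0.69 and limma adjusted p of 0.0469, 0.0479 and 0.0145. In all, 4 of 16 partners tested passed with a higher mean and 4 with a lower mean in MDA-MB-468 (55.1% of all genes tested passed in either direction).

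ANLN encodes anillin, which recruits septins to the cleavage furrow. It had 67.9 and 72.9 FPKM in BT-20 and 99.5 and 67.0 FPKM in MDA-MB-468, a difference with QPRT shRNA of 0.10 and -0.56 on the log2(FPKM + 1) scale. Among 12 cytokinesis genes, which share ANLN, CIT and MYH10 with the partners, 7 had lower values with QPRT shRNA in BT-20 and 11 had them in MDA-MB-468, where 43% and 47.6% of all genes tested were lower. Their median difference was -0.01 for BT-20 and -0.39 for MDA-MB-468, beside 0.05 and 0.01 for all genes tested. None differed by 2-fold or more on this scale and none had an adjusted p under 0.05 for QPRT shRNA (limma). Between the lines, KIF20A and CEP55, which act at the midbody, were higher in MDA-MB-468 (mean line differences 1.30 and 0.75, limma adjusted p = 1.43e-08 and 0.0019). PRC1, MYH10 and CHMP4B were lower there (mean line differences -0.59, -0.48 and -0.75, limma adjusted p = 0.00915, 0.0479 and 0.000325). These 5 of 12 stand beside 55.1% of all genes tested.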

How the data were processed

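RNA was extracted with Trizol, and libraries were made by the authors with the TruSeq RNA Sample Prep Kit and sequenced on a NovaSeq instrument. The submitters' processing notes list CASAVA, FastQC, MultiQC, TopHat2 2.0.12 and HTSeq 0.6.1. The genome build and annotation are not given in the sources used here. The authors deposited FPKM values for 50653 genes. The count test named by the study does not apply to FPKM and was not run.

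Gene symbols were matched for 49414 genes and GENCODE 29 transcript lengths for 49839, and for 27 repeated symbols only the highest row by mean was used. FPKM times the mean transcript length, divided by what 1 fragment is worth, was whole within 0.02 for 87.3% to 87.5% of the values above 0. For SEPTIN5, SEPTIN7 and SEPTIN3 the length was inferred from the 4 values. For SEPTIN3 2 lengths fitted, so its fragment numbers and counting intervals depend on the length taken. Exact Clopper-Pearson 95% intervals of fragment ratios cover counting error only, since fragments are not independent molecules.

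Differences are of log2(FPKM + 1), which understates the change of low genes. limma 3.58.1 (R 4.3.3) was fitted to 14321 genes, those whose mean FPKM reached 1, with line and shRNA as terms and an eBayes trend, 1 residual degree of freedom and Benjamini-Hochberg adjustment over all genes tested. Nothing says that the libraries came from separate cultures. Prior degrees of freedom were estimated as infinite, so every p-value of the main fit rests on a spread pooled over genes. None measures a spread between replicates of a line and shRNA. The same fit was also run on simulated data. Their spread was drawn from the trend of the fit itself, so that run cannot check the spread or the p-values. Python 3.11.15, scipy 1.17.1 and Biopython 1.88 were used.

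Named genes are the 8 septins, the other septin genes, septin pseudogenes, Borg genes, ANLN and list members past 2-fold or an adjusted p under 0.05. HDLBP and CCNI2 were named for their overlap after values were seen. Members and lists were chosen with earlier results of these data known. Alternatives were a pseudocount of 0.1, upper quartile and TPM scaling, no filter, a filter at a mean FPKM of 5, 1.5-fold as the threshold, a fit without the other factor, eBayes without the trend, removal of the lowess trend (fraction 0.3) on GC content and length, limma-voom on recovered fragments, and line differences within each shRNA. The value of 1 listed marker gene is not reported here.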

Additional observations from a re-analysis of the deposited data

Results flagged for a closer look

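SEPTIN5, SEPTIN8 and SEPTIN9 were singled out because QPRT shRNA moved them one way in the BT-20 libraries and the other way in the MDA-MB-468 libraries. The difference between the lines was not tested, and 54.6% of all genes tested had opposite signs. On the log2(FPKM + 1) scale, SEPTIN9 differed by 0.40 in BT-20 and by -0.0377 in MDA-MB-468, SEPTIN5 by -0.15 and 0.26, and SEPTIN8 by -0.0985 and 0.0182. The counting interval included no difference for SEPTIN9 in MDA-MB-468 and for SEPTIN5 and SEPTIN8 in both lines.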

How the results depend on the processing

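The count of septins at least 2-fold apart was 0 in BT-20 under all settings tried and 0 in MDA-MB-468 under all but 1: at a threshold of 1.5-fold it was 1, SEPTIN2 (9.17% of the genes tested passed that threshold in MDA-MB-468). The count of septins with an adjusted p under 0.05 between the lines was 5 and fell to 0 with no filter on low values, with adjusted p from 0.129 (SEPTIN11) to 0.363 (SEPTIN2) for the 5 called genes. It was 6 with eBayes without the trend and with correction for GC content and length, where SEPTIN5 passed (adjusted p of 0.0273 and 0.0331, and 0.0569 to 0.492 under the other alternatives that tested it). The count for QPRT shRNA against control shRNA stayed at 0 under every alternative. The count of septins lower in both lines was 5 or 6. Correction for GC content and length moved the knockdown value beyond the counting interval for SEPTIN6 (-0.54), SEPTIN7 (-0.45) and SEPTIN9 (0.47) in BT-20 and for SEPTIN7 (-0.12) and SEPTIN9 (-0.17) in MDA-MB-468. SEPTIN5 was left out of the test at a mean FPKM of at least 5. The transcript length used changed the order of a septin within its library in 19 of 32 cases. The labels give no replicate numbers; the line term pairs the libraries by line, and without the other factor the counts were 0 for QPRT shRNA and 5 between the lines. Leaving out a library leaves no residual degree of freedom.

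SEPTIN5 in all libraries and SEPTIN11 in BT-20 rest on 24 to 54 fragments, and their intervals are wide. Differences of RNA amount, isoform use and protein were not measured here.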

Other observations

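The ratio of 1 septin to another within a library does not depend on how libraries are scaled, and its change does not depend on the transcript length used for FPKM. Among the 28 pairs of the 8 septins, 18 changed in the same direction in both lines. The pairs share genes and no share over pairs of other genes was computed, so no conclusion is drawn from this count. The pair SEPTIN2 and SEPTIN9, named after its values were seen, came first when pairs were ordered by the smaller of the changes in the lines. SEPTIN2 over SEPTIN9 was 1.78 in BT-20 with control shRNA and 1.18 with QPRT shRNA, and 0.872 and 0.581 in MDA-MB-468. The log2 change of SEPTIN9 over SEPTIN2 was 0.59 in both lines, with counting intervals (normal approximation) of 0.50 to 0.67 in BT-20 and 0.49 to 0.68 in MDA-MB-468. In BT-20 SEPTIN9 was higher and SEPTIN2 lower with QPRT shRNA. In MDA-MB-468 SEPTIN2 was lower and the counting interval of SEPTIN9 included no difference. With correction for the trends on GC content and length, on the log2(FPKM + 1) scale and added after seeing the data, the change was 0.67 for BT-20, at the upper end of the uncorrected interval, and 0.45 for MDA-MB-468, below it. With 1 library per line and shRNA the change has no replicate check.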
